A study of Mus musculus with 8 samples.

Results

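The constitutive proteasome genes were examined as 1 complex in mouse mammary tumour cells with and without interferon gamma (IFNg). The members were taken by gene symbol alone: Psma1 to Psma7, Psmb1 to Psmb4, Psmc1 to Psmc6, every numbered Psmd gene and Psmg1 to Psmg4. They made up 35 of the 12964 genes in the deposited table. The rule used no measured value, although it was proposed with earlier results of these data known, and all 35 passed the filter on low values. The lowest number of reads behind any member in any library was 230.

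The proteasome is the barrel-shaped protease that degrades ubiquitin-tagged proteins. Its 20S core is a stack of alpha rings, which gate the entrance, and beta rings, which hold the cutting sites. The 19S particle caps the core: its base unfolds substrates with a ring of ATPases, and its lid removes ubiquitin. Dedicated chaperones assemble the core and the base and then leave. IFNg is known to induce 3 alternative catalytic beta subunits, which replace the constitutive ones and form the immunoproteasome that feeds peptides to MHC class I.

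Gene expression was measured by poly(A) RNA sequencing in cultured PyMT cells, labelled as a wild-type line from primary mammary tumours and named for the polyoma middle T oncogene that drives them. The cells were sorted by flow cytometry into those with CD90 on their surface (CD90pos) and those without (CD90neg). Each population was left untreated (control) or given IFNg at 10 IU per ml for 24 h, and each of the 4 groups had 2 libraries, named A and B. The libraries held 31243646 to 40899909 reads. Because the measurement is bulk, fewer cells of a type and less RNA per cell cannot be told apart. Whether A and B came from separate cultures or animals is not stated, so each p-value covers the spread of these 2 libraries a group, which could be technical.

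The epithelial markers Epcam, Cdh1, Krt8 and Krt18 were high in all 8 libraries. Epcam, Krt8 and Krt18 were higher in every B library than in every A library, and the Cdh1 ranges overlapped. Krt8 had 81212 to 182867 normalized reads in A and 277798 to 314509 in B libraries. The basal keratin gene Krt5 moved with letter and population: it had 94.7 to 393 normalized reads in A libraries, 1131 and 3170 in CD90neg B libraries and 13087 and 13452 in CD90pos B libraries. Krt14, another basal keratin gene, had 2872 to 6746 in A and 14650 to 30236 in B libraries. The 6 epithelial markers summed to between 204766 and 822473 normalized reads. Of 7 leukocyte markers 2 were measured (Csf1r and Lyz2), with sums of 30.6 to 1648, and of 5 fibroblast markers 4, with sums of 327 to 1814. Lyz2 was higher in every A library (621 to 1595) than in every B library (11.2 to 45.8), and the Csf1r ranges overlapped. The remaining leukocyte markers, Lum and the 3 endothelial markers were not analysed here. The CD90pos control libraries stood apart from each other: mitochondrially encoded genes took 2.31% of reads in A and 0.670% in B, the highest and the lowest share seen. The leukocyte sum was highest in CD90pos control A and the fibroblast sum in CD90pos control B, and the part of these markers in the results was not tested. The sort marker gene Thy1 was at 16.6 to 65.5 normalized reads in CD90neg libraries and 283 to 3936 in CD90pos libraries. Within CD90pos cells it had 283 in control A and 1495 in control B, and 2195 and 3936 with IFNg.

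The sequence just before the transcription start is shown for the 3 members that passed the test in CD90pos cells, Psma6, Psmd14 and Psmd10. Capitals mark the CCAAT box or its reverse complement ATTGG, a promoter element common among housekeeping genes. Each line gives 170 bases before the start on the gene's own strand, from RefSeq on GRCm38.p6.
Psma6 (chr12:55384052-55384221, plus strand): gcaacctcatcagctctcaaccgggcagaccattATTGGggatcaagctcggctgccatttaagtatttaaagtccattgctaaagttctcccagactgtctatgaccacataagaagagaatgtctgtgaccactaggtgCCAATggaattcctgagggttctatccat
Psmd14 (chr2:61711524-61711693, plus strand): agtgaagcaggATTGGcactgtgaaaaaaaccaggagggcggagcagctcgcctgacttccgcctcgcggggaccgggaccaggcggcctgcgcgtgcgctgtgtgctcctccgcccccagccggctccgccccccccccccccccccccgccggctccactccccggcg
Psmd10 (chrX:140956712-140956881, minus strand): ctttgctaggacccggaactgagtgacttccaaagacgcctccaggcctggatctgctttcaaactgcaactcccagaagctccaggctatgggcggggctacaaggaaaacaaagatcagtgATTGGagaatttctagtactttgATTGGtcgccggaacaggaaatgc

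Psmg4 is shown for another element. It had the largest positive IFNg difference of the 35 members in CD90neg cells. Capitals mark its match to GAAA, any 2 bases and GAAA again, the spacing that interferon regulatory factors bind. The match lay after the start, and its first base was base 16 counted from the start.
Psmg4 (chr13:34162969-34162998, plus strand): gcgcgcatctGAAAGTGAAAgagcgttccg

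RefSeq windows of 300 bases, from 250 before to 50 after the start, matched 29 of the 35 members, with 31 windows. The motifs were searched on both strands, and matches of different motifs may overlap. CCAAT was in 11 of the 31 windows (35.5%) and in 37.4% of all 32851 windows of that length. In the 20S core it was in 6 of 10 windows. TGACNNNGC, the core of the antioxidant response element, was in 9.68% of the members' windows and 12.4% of all. The interferon regulatory factor spacing was in 4 windows (12.9%), those of Psmb3, Psmd4, Psmd9 and Psmg4, and in 3.44% of all. These matches describe letters in a window and show no binding.

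Per length of transcript, the proteasome genes were abundant. Their mean over the 8 libraries had a median of 4002 normalized reads per kb over the 35 members, against 331 over all genes tested. The subunits of the particle and the chaperones that build it separated without overlap on this scale. The 28 subunits of the core and the 19S particle lay between 1823 normalized reads per kb (Psmd11, a lid scaffold subunit) and 13473 (Psma7, an alpha ring subunit). The 7 assembly chaperones lay between 592 (Psmd9, a chaperone of the base) and 1052 (Psmg4, a chaperone of the alpha ring). Levels within a ring were not equal: the alpha ring, whose 7 subunits stand in equal number in the protein, spanned 6.91-fold from Psma3 at 1949 to Psma7 at 13473. The ATPase ring spanned 1.80-fold from Psmc2 to Psmc3. Such ratios rest on the annotated transcript length, which was taken as 1 transcript a gene.

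**Figure D1:**
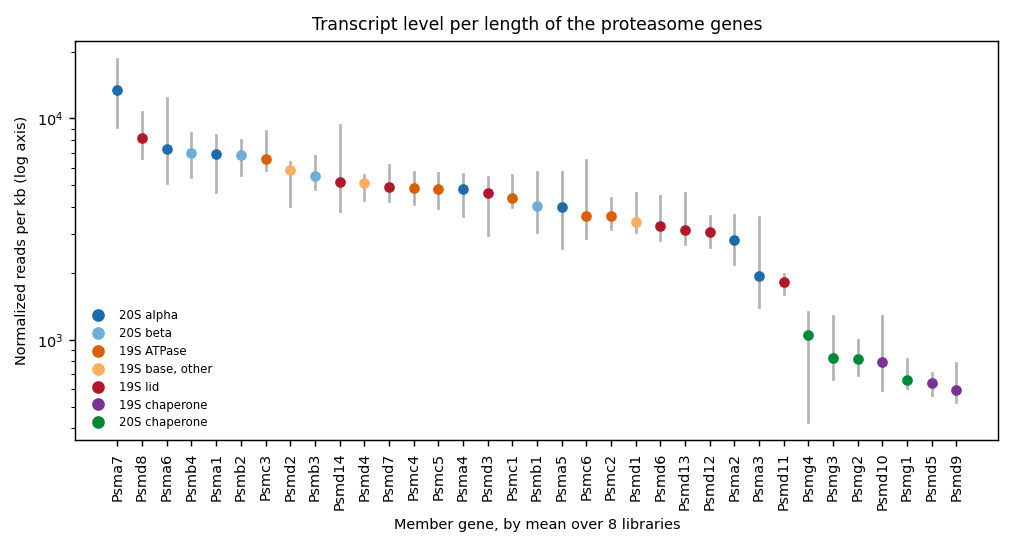
Mean normalized reads per kb of transcript over 8 libraries for each of the 35 members (log axis), coloured by role, with grey lines from the lowest to the highest library. The 7 assembly chaperones sit between 592 and 1052, below all 28 subunits of the core and the 19S particle.

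Across libraries the 35 members moved by small amounts, and the control libraries of both populations stood farther from each gene's mean than the IFNg libraries. Against each gene's mean over 8 libraries, the median member stood at -0.18 and -0.16 (log2) in CD90neg control A and B, at -0.01 and 0.00 in CD90neg IFNg, at 0.07 and 0.31 in CD90pos control and at 0.00 and -0.03 in CD90pos IFNg. The CD90neg control libraries were thus the lowest pair and CD90pos control B the highest library. The 2 CD90pos control libraries disagreed by role. The alpha ring stood at 0.49 in A and 0.25 in B, whereas the ATPase ring stood at -0.17 in A and 0.31 in B. The median absolute difference between A and B over the members was 0.367 in CD90pos control cells and 0.081 to 0.100 in the other groups.

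**Figure D2:**
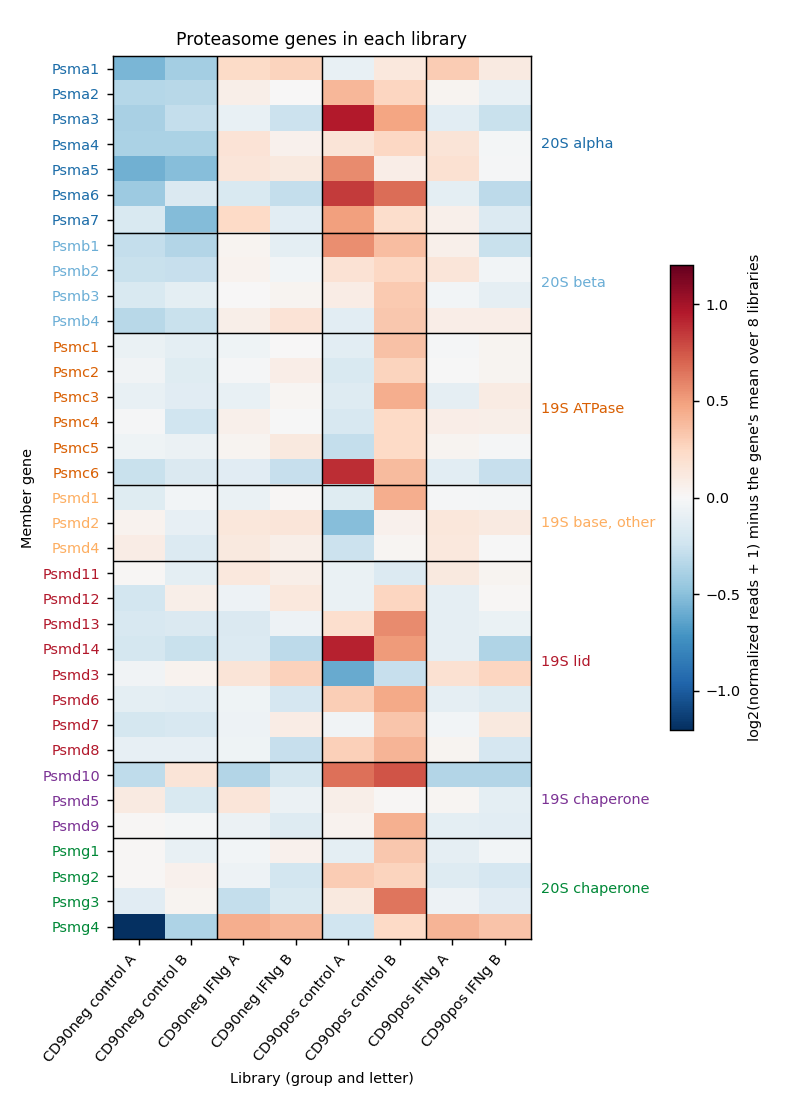
Each row is a member and each column a library; colour is log2(normalized reads + 1) minus the gene's mean over 8 libraries, with role names beside the rows. The alpha ring is low in both CD90neg control libraries (medians -0.39 and -0.38) and high in both CD90pos control libraries (0.49 and 0.25), while the ATPase ring has a median of -0.17 in CD90pos control A and 0.31 in B.

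The first comparison asked how the populations differed without IFNg. In control cells the 20S core genes were higher in CD90pos than in CD90neg cells, with a median log2 difference of 0.66 over 11 core members against 0.40 over all 35 members and -0.01 over all genes tested. All 11 core members were higher in both CD90pos control libraries than in both CD90neg control libraries. Over all 35 members 22 were, where 19.8% of all genes tested were, and 1 was lower in both, where 17.6% were. A gene was called when its adjusted p was under 0.05 in limma with Benjamini-Hochberg adjustment over all 12962 genes tested. No gene of the table was called in either direction (0%), and 1898 genes, 18 of them members, had an unadjusted p under 0.05. When the letter A or B was added to the fit as a block, 13 members were called higher and 0 lower, with 6.8% and 4.4% of all genes. The 13 were 6 of the 7 alpha subunits (all but Psma1, adjusted p 0.0557), Psmb1 and Psmb2 of the beta ring, the ATPase Psmc6, the lid genes Psmd6, Psmd13 and Psmd14, and the base chaperone Psmd10.

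Psma6, a subunit of the alpha ring (chromosome 12, 55384222 to 55418454, plus strand), had the highest difference between the populations in control cells. Its normalized reads were 12891 in CD90pos control A and 11478 in B, against 5337 and 6398 in CD90neg control A and B. The groups did not overlap, and the log2 difference was 1.06 ± 0.15 (SE), a 2.08-fold higher level, with adjusted p 0.173 in limma without the block and 0.0288 with it. Psma3, another alpha ring subunit, differed by 1.05 ± 0.18 and the lid deubiquitinase Psmd14 by 0.96 ± 0.18, both with an adjusted p of 0.0288 in the blocked limma fit. Psma3 overlaps 3110056K07Rik on the opposite strand; no source used here says whether counting used strand, so its reads are uncertain. The same holds for Psmc3, Psmd5 and Psmd13, which overlap a gene of the table on the other strand, and for Psma2, which overlaps one on its own strand.

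Not every part of the particle followed. The ATPases Psmc1 to Psmc5, which drive unfolding as 1 ring with Psmc6, differed by 0.03 to 0.25, and all 5 were positive in library B and negative in library A. Psmc6 differed by 0.85 ± 0.19. The lid scaffold subunit Psmd3 (chromosome 11, 98682554 to 98695979) had the lowest difference of the 35 members. Its normalized reads were 6411 and 8035 in CD90pos control A and B and 9445 and 9993 in CD90neg control A and B. Both CD90pos values lay below both CD90neg values, and the log2 difference was -0.44 ± 0.15, with adjusted p 0.262 in limma without and 0.0544 with the block.

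These calls depended on single libraries. With the block, leaving out any 1 of the CD90neg control, CD90neg IFNg or CD90pos IFNg libraries left 0 members called. The median difference of the 35 members in the blocked fit was 0.57 without CD90pos control A and 0.24 without CD90pos control B. Which members were called changed between these fits.

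The second comparison was the response to IFNg in CD90pos cells, which shares the CD90pos control libraries with the first, so that its values are not independent of those above. Here 3 members fell and 0 rose by limma without the block, with 2.11% of all genes tested called lower and 2.11% higher. The 3 were Psma6 of the alpha ring, the lid deubiquitinase Psmd14 and the base chaperone Psmd10. Over the 35 members 27 had a negative and 8 a positive difference, with a median of -0.16 against 0.01 for all genes. Of all 12962 genes tested 6389 were negative. The letters differed: the members' median was -0.03 in library A and -0.34 in library B. In A 15 members were positive and in B 4, and 20 were negative in both. Both IFNg libraries were below both control libraries for 17 members (23.8% of all genes) and above them for 4 (24.2%).

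**Figure D3:**
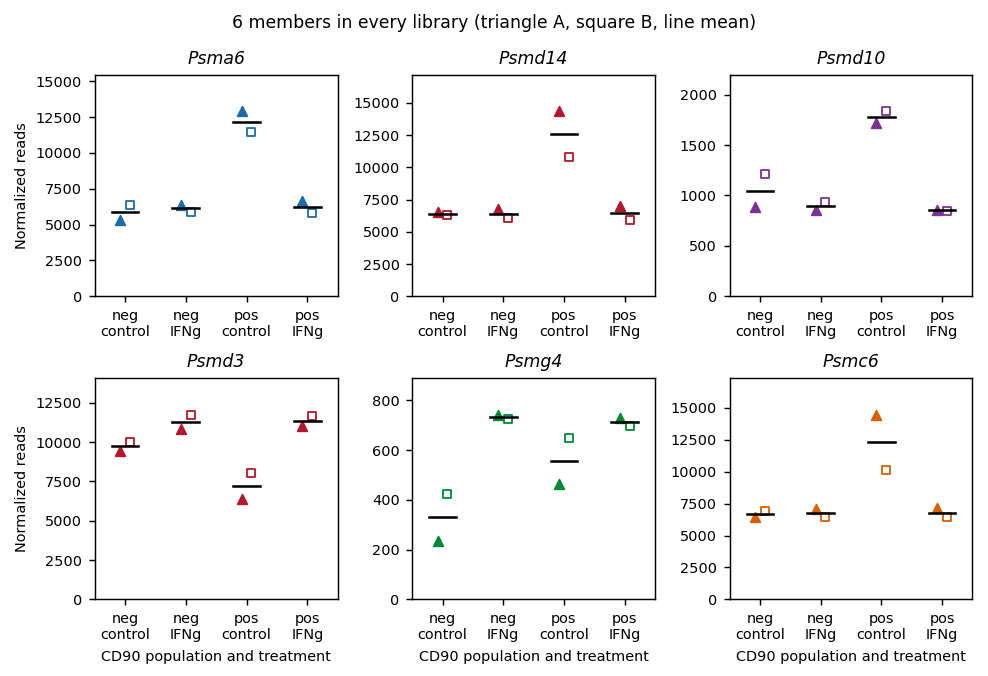
Normalized reads of 6 members in each library, by CD90 population and treatment (triangles, library A; squares, library B; lines, group means; each axis starts at 0). Psma6, Psmd14, Psmd10 and Psmc6 are high in both CD90pos control libraries, Psmd3 is low there, and Psmg4 is low in both CD90neg control libraries.

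Psma6 went from 12891 and 11478 normalized reads in CD90pos control A and B to 6644 and 5817 with IFNg. CD90neg cells held 5337 and 6398 without and 6349 and 5910 with IFNg, so the CD90pos control libraries were the 2 high ones among 8. The log2 difference was -0.97 ± 0.15, with adjusted p 0.0344 in limma. Psmd14, which cuts ubiquitin chains off the substrate (chromosome 2, 61711694 to 61800376), went from 14322 and 10760 to 7002 and 5906, while CD90neg libraries held 6540 and 6266 without and 6729 and 6091 with IFNg. It showed the same arrangement, with a log2 difference of -0.95 ± 0.18 and adjusted p 0.0468 in limma, but was not called by edgeR without the block (adjusted p 0.052). Psmd10, known as gankyrin, holds ATPases during base assembly (chromosome X, 140948429 to 140956728). It went from 1723 and 1833 to 853 and 849, while CD90neg libraries held 882 and 1209 without and 851 and 937 with IFNg. Its log2 difference was -1.06 ± 0.19, with adjusted p 0.0404 in limma.

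With the replicate block 11 members were called lower and 1 higher, with 13.6% and 14% of all genes called. The lower ones were Psma2, Psma3, Psma6 and Psma7 of the alpha ring, Psmb1 of the beta ring, Psmc6, the lid genes Psmd6, Psmd13 and Psmd14, and the chaperones Psmd10 and Psmg2. Psmc6 went from 14449 and 10126 normalized reads to 7130 and 6428 (log2 difference -0.84 ± 0.19, blocked limma adjusted p 0.0104). The 5 other ATPases lay between -0.15 and 0.05, values that average opposite signs. In library A these 5 rose while Psmc6 fell, and in library B all 6 fell. The median of the ring was 0.14 in A and -0.29 in B. Psmb1 had the largest difference of the beta ring at -0.57 ± 0.16 (blocked limma adjusted p 0.0123). Psmd3 was the single member called higher: it went from 6411 and 8035 to 11048 and 11640, a log2 difference of 0.66 ± 0.15 (limma adjusted p 0.0635 without and 0.0086 with the block). Its lid partners Psmd6, Psmd13 and Psmd14 moved the other way. Psmd2, the docking subunit for ubiquitin shuttles, had 0.35 ± 0.20 and the core chaperone Psmg3 -0.48 ± 0.21, and neither was called.

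Without the block, 0 members were called when any 1 of the 8 libraries was left out. With the block, which members were called lower changed with the library left out. The median difference of the 35 members was then -0.34 without CD90pos control A and -0.07 without CD90pos control B. It was -0.24 without CD90pos IFNg A, -0.14 without CD90pos IFNg B and -0.16 without any 1 CD90neg library.

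The third comparison was the response to IFNg in CD90neg cells, which shares no library with the second. It shares the CD90neg control libraries with the first, so its values are not independent of that comparison. Against each gene's mean over 8 libraries, the median core member stood at -0.34 in CD90neg control A and -0.33 in B. All 11 members of the 20S core had a positive difference, with a median of 0.37 against 0.13 for all 35 members and -0.02 for all genes. For 10 of the 11, all but Psma6, both IFNg libraries were above both control libraries. Over the 35 members 20 were above (14.3% of all genes) and 3 below (14.7%). No member was called by limma without the block, where 0.633% of all genes were called higher and 0.00771% lower. In that fit 729 of the 12962 genes tested, 6 of them members, had an unadjusted p under 0.05. With the block 2 members were called higher and 0 lower (3.48% and 0.663% of all genes): Psma1 and the core chaperone Psmg4.

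Psma1, an alpha ring subunit (chromosome 7, 114264606 to 114276118, minus strand), had 5597 and 6147 normalized reads in CD90neg control A and B and 9586 and 9849 with IFNg. The groups did not overlap, and the log2 difference was 0.73 ± 0.14, with limma adjusted p 0.145 without and 0.0285 with the block. In CD90pos cells Psma1 had 7655 and 8932 without and 10113 and 8803 with IFNg, and these overlapped. Psmg4, which pairs with Psmg3 to place alpha subunits (chromosome 13, 34162964 to 34178173), had 237 and 424 normalized reads in CD90neg control A and B and 743 and 727 with IFNg. Its log2 difference was 1.21 ± 0.31, with limma adjusted p 0.347 without and 0.0471 with the block, and CD90pos cells had 464 and 648 without and 731 and 698 with IFNg. Its partner Psmg3 had a difference of -0.19 ± 0.21 in CD90neg cells.

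The 19S particle showed smaller differences in CD90neg cells. All 6 ATPases lay between 0.01 and 0.16, and the 8 lid genes between -0.07 and 0.22. Psmd14 had 6540 and 6266 normalized reads without and 6729 and 6091 with IFNg, a log2 difference of 0.00 ± 0.18. The lowest of the 35 members was Psmd10 at -0.21 ± 0.19 and was not called, and its control libraries, 882 and 1209, spread more widely than its IFNg libraries, 851 and 937. The 2 calls of the blocked fit were both lost without any 1 of the 4 CD90neg libraries. Which members were called also changed without a CD90pos library, where the median of the 35 members stayed at 0.13. That median was 0.20 without CD90neg control A and 0.10 without CD90neg control B in the blocked fit.

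**Figure D4:**
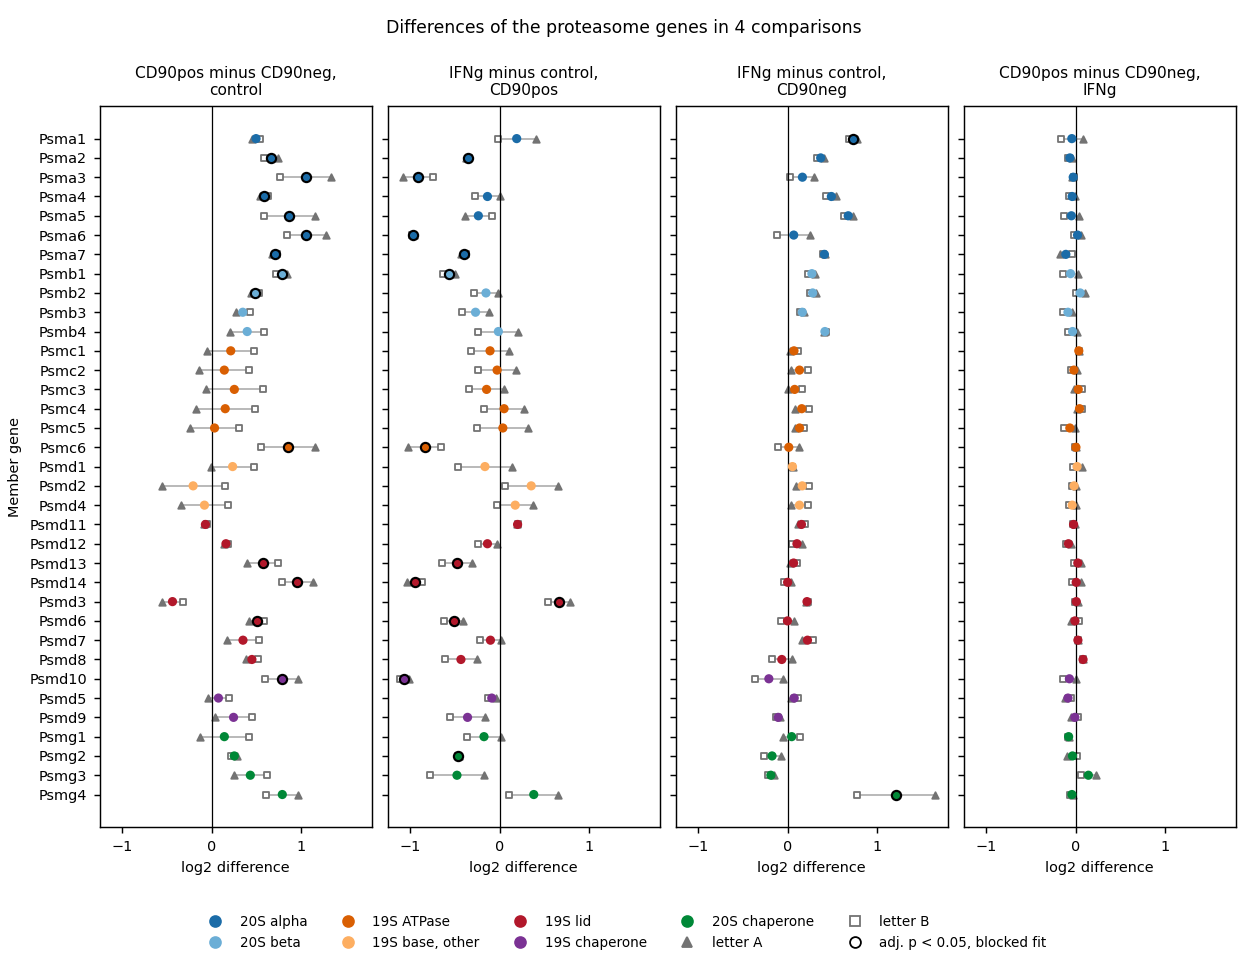
Log2 differences of the 35 members in 4 comparisons; coloured dots are the group differences, triangles and open squares those of libraries A and B alone, and a black ring marks an adjusted p under 0.05 in the blocked limma fit. The 20S alpha genes lie right of 0 in the control populations and in CD90neg IFNg cells, and all 35 members lie within -0.11 and 0.14 between the populations under IFNg.

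Under IFNg the populations stood close together. All 35 members differed between CD90pos and CD90neg cells by -0.11 (Psma7) to 0.14 (Psmg3), with a median of -0.02. No gene of the table was called in this comparison (0% in each direction), 17 genes and 0 members had an unadjusted p under 0.05 by limma, and edgeR also called 0 genes while DESeq2 called 1. Psma7 had 12587 and 10748 normalized reads in CD90pos and 14225 and 11061 in CD90neg IFNg libraries A and B, and these overlapped. Psmg3 had 692 and 657 against 590 and 633, without overlap. Both CD90pos libraries were above both CD90neg libraries for 2 members (7.03% of all genes) and below them for 3 (6.97%). The widest 95% intervals of single members reached from -0.81 to 0.73, so differences of that size in a single gene were not excluded by the measurement.

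The difference between the 2 IFNg responses was tested directly as an interaction. No gene of the table was called by limma (0% in each direction) with or without the block, and 826 genes, 14 of them members, had an unadjusted p under 0.05 without the block. The response in CD90pos minus that in CD90neg cells had a median of -0.37 over the 35 members, with 31 negative. Of all 12962 genes tested 6320 were negative. The members' median was -0.30 in library A and -0.53 in library B. In A 11 members were positive and in B 2, and 24 were negative in both. The lowest was Psma3 at -1.08 ± 0.26 (limma adjusted p 0.783 without and 0.179 with the block) and the highest Psmd3 at 0.44 ± 0.21 (0.821 and 0.255). DESeq2 on the recovered reads called 6 members lower here (Psma2, Psma3, Psma4, Psma6, Psmb1 and Psmd14) among 139 genes, and edgeR called 0 genes. The responses were therefore not shown to differ by the limma and edgeR fits.

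Transcript length and GC content moved with these differences over the whole table. The members are short, with a median transcript of 1540 nt against 3001 nt for all genes, and their median GC content was 49.5% against 50.3%. Over all genes the control difference between the populations had a Spearman coefficient of -0.31 with length and -0.40 with GC, and the IFNg response in CD90pos cells one of 0.30 with each. Over the 35 members the coefficients with GC were -0.41 and 0.41, as a description of genes that share libraries. The 19 members below the median GC of all genes had a median control difference of 0.50 and the 16 others one of 0.30. In CD90neg cells the IFNg response had coefficients of 0.02 with length and 0.09 with GC over all genes.

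When a smooth trend on length and GC was taken out of each library and the block kept, the control difference of the 35 members went from a median of 0.40 to 0.15, and that of the alpha ring from 0.70 to 0.41. No member was then called, with 0.0154% of all genes called in each direction. Of the 11 core members 9 stayed positive in both libraries. Psma6 had 0.59 (blocked limma adjusted p 0.127) and Psma3 0.70 (0.111). In CD90pos cells with IFNg the median of the 35 members went from -0.16 to 0.05. That of the alpha ring went from -0.36 to 0.03, with -0.18 in library A and 0.05 in B. Here 6 members were called lower (Psma3, Psma6, Psmd13, Psmd14, Psmd9 and Psmd10) and 3 higher (Psma1, Psma4 and Psmd3), with 7.44% and 7.49% of all genes. Psma6 then had -0.49 (0.037), Psmd14 -0.46 (0.0385) and Psmd10 -0.50 (0.0322) in the blocked limma fit. Without the block 0 members were called after this step. In CD90neg cells the median of the 35 members went from 0.132 to 0.081 and that of the alpha ring from 0.41 to 0.42, and Psma1, Psma4 and Psmg4 were called higher and 0 lower, with 3.65% and 0.749% of all genes. The part of length and GC in the results was not tested beyond this, nor was that of the mitochondrial share of the CD90pos control libraries.

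**Figure D5:**
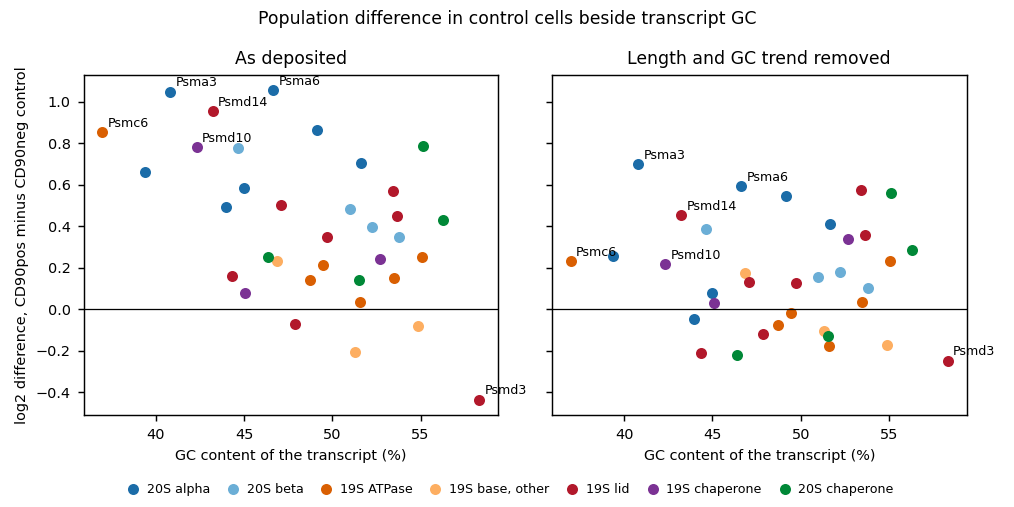
Log2 difference between CD90pos and CD90neg control cells for the 35 members against the GC content of the transcript, as deposited (left) and after the trend on length and GC was removed (right). The median falls from 0.40 to 0.15, and Psma3 and Psma6 remain the highest.

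The catalytic beta subunits outside the symbol rule gave the contrast within the core. The immunoproteasome subunits Psmb8, Psmb9 and Psmb10 were higher with IFNg in all libraries of both populations. Without the block 2 of the 3 were called in CD90pos cells (Psmb9 and Psmb10) and Psmb9 in CD90neg cells, and with it all 3 were called in both. Of all genes tested 2.11% in CD90pos and 0.633% in CD90neg cells were called higher without the block, and 14% and 3.48% with it. Psmb9 had 73 and 229 normalized reads in CD90pos control A and B and 6572 and 5590 with IFNg, and 62 and 140 in CD90neg control and 6123 and 5939 with IFNg. The log2 difference was 5.54 ± 0.60 in CD90pos cells (limma adjusted p 0.0197), and the CD90neg level was 64.0-fold higher with IFNg (0.0214). Their constitutive counterparts Psmb5, Psmb6 and Psmb7 had -0.53, -0.52 and -0.33 in CD90pos and -0.04, 0.14 and 0.10 in CD90neg cells. Of these 3 genes Psmb6 in CD90pos cells was called, in the blocked limma fit alone (adjusted p 0.0127).

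Among the proteasome activators, Psme1 and Psme2, which form the IFNg-inducible cap of the core, had 2.26 and 1.91 in CD90pos and both 2.51 in CD90neg cells. Psme1 in CD90pos cells was called without the block (limma adjusted p 0.0372), and both genes were called in both populations with it. Of the 7 maturation and associated genes, Pomp, the maturation factor of the core, had 0.72 ± 0.12 in CD90neg (limma adjusted p 0.0832 without and 0.0105 with the block) and 0.12 ± 0.12 in CD90pos cells. Txnl1, a thioredoxin bound to the 19S particle, fell by 0.77 in CD90pos cells (limma adjusted p 0.0397). With the block Sem1, a small lid subunit, was also called lower and AI314180 higher in CD90pos cells. None of 4 genes of the p97 unfoldase passed the test without the block in either population. With it Nploc4 of the p97 genes and the proteasome inhibitor Psmf1 were called higher in CD90pos cells. In the blocked fit of CD90pos cells 14% of all genes were called higher and 13.6% lower. Of 6 genes of ubiquitin and its activating enzymes Rps27a fell in CD90pos cells (by 1.10, limma adjusted p 0.0456). Nfe2l1 encodes NRF1, a transcription factor that drives proteasome genes. It went from 10514 and 7744 to 22438 and 17143 in CD90pos and from 12990 and 10123 to 21126 and 19065 normalized reads in CD90neg cells. Its log2 differences were 1.12 ± 0.23 and 0.81 ± 0.23, called with the block (limma adjusted p 0.0026 and 0.0132) and not without it (0.0540 and 0.447).

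Other complexes built of many subunits were set beside the proteasome in CD90pos cells with IFNg. Of all genes tested 2.11% were called lower and 2.11% higher without the block, and 13.6% lower and 14% higher with it. The CCT chaperonin, which folds cytoskeletal proteins, had a negative difference in 8 of 8 genes with a median of -0.33, and 2 were called lower (Cct4 and Cct6a), or 3 with the block. The COP9 signalosome, a relative of the 19S lid, had a median of -0.28 with 1 of 9 called lower (Cops3), or 4 with the block. The translation factor eIF3, another relative, had a median of -0.03 with 2 of 13 called lower (Eif3i and Eif3m), or 4 lower and 3 higher with the block. The 35 proteasome members, with a median of -0.16, 3 called lower and, with the block, 11 lower and 1 higher, had a median within the range of these 3 complexes.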

How the data were processed

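RNA from 8 libraries was analysed from the 1 table the authors deposited. It holds normalized read counts (a signal) for 12964 genes, and none of its columns lacked a sample (0). The tools STAR and HTSeq and the builds GRCm38 and mm10 come from the submitters' processing notes. The filter and the scaling are not given in the sources used here. Per the labels' protocols, libraries were stranded and poly(A)-selected. Every value was a whole multiple of 1 step per library (100% within 0.001), so whole reads were recovered from the deposited signal. Reads carry no molecular identifiers, so the floor of 3 reads, 2.55 to 3.37 normalized reads, covers counting error only.

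Tests used log2(normalized reads + 1), so folds of low genes are understated, with limma 3.58.1 in R 4.3.3 (variance trend, 1 mean per group, two-sided) on 12962 genes at 10 or more in at least 2 libraries. A second fit took the library letter as a block. What A and B mean is not stated, but A minus B differences correlated between groups across genes at 0.779 to 0.920 over 6 group pairs, so the letters were taken to pair libraries, and blocked values are given beside members whose call they change and as counts for the other lists. Intervals of 95% and the standard errors (±) of the members come from the fit without the block, also where a blocked p-value stands beside them. The trend on length and GC used splines of 4 degrees of freedom on 1 GENCODE vM21 transcript per gene. The recovered reads were tested with edgeR 4.0.16 and DESeq2 1.42.0, because the deposited values were not raw counts. The fits were also run on simulated data without a letter effect or a trend on length and GC, so that run covers neither.

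The members, gene lists and tests were chosen with earlier results of these data known. Named members are those called without the block, the highest and the lowest in each comparison and the largest of each role in CD90pos cells; Psma1 and the other genes called by the blocked fit were named after their values were seen. Alternatives were pseudocounts of 0.5 and 5, no filter, median centring, quantile normalization, the block, the trend removal, both count tools and leaving out each library. The leave-one-out fits with the block, the blocked edgeR fit and the trend removal without the block were added after seeing the data.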

Additional observations from a re-analysis of the deposited data

How the results depend on the processing

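Of the results on calls and medians, pseudocounts of 0.5 and 5, no filter, quantile normalization and edgeR without the block moved none by more than 1.5 times or its spread, although edgeR called 2 members lower in CD90pos IFNg (Psma6 and Psmd10) and not Psmd14, and median centring moved the median of the members in the CD90neg IFNg response to 0.080. The replicate block raised the calls over the whole table to 1815 higher and 1763 lower (CD90pos IFNg; members 1 and 11), 451 and 86 (CD90neg IFNg; 2 members higher) and 881 and 570 (control populations; 13 members higher), and it changed no other count of adjusted calls among these results. Genes with an unadjusted p under 0.05 went from 1898 to 3961 (members 18 to 21) between control populations, from 17 to 168 between IFNg populations and from 826 to 2154 (members 14 to 16) in the interaction. The blocked edgeR fit gave 1871 and 1723 (members 1 and 10), 471 and 80 (2 members) and 882 and 493 (13 members). DESeq2 without the block gave 981 and 1061 (members 1 and 10), 336 and 31 (2 members), 660 and 327 (14 members), 1 higher gene between the populations under IFNg, and 43 higher and 139 lower in the interaction (6 members lower). With the length and GC trend removed and the replicate block, calls were 970 and 963 (members 3 and 6), 473 and 97 (3 members) and 2 and 2 (0 members). Without the block the same step left 107 and 9 genes and 0 members in CD90pos cells. In both, the members' medians moved to 0.081 (CD90neg IFNg), 0.15 (control populations) and -0.14 (interaction). The causes were not tested.

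Leaving out each library in turn, with and without the block, gave these lowest and highest values. In CD90pos IFNg, 2 to 2275 genes were higher and 0 to 1760 lower, 0 to 2 members higher and 0 to 14 lower, with a median of -0.34 to -0.07. In CD90neg IFNg, 3 to 563 genes were higher and 0 to 135 lower, 0 to 4 members higher, with a median of 0.093 to 0.196. Between control populations, 0 to 1037 genes were higher and 0 to 1431 lower, 0 to 23 members higher and 0 to 2 lower, with a median of 0.24 to 0.57. Between IFNg populations the median was -0.065 to 0.038, and in the interaction -0.52 to -0.23. The sign of 2 named differences near 0 turned between the IFNg populations: Psma7 (range -0.29 to 0.073) was positive without CD90neg IFNg A and, at 0.0050, without CD90pos IFNg B, and Psmg3 (range -0.029 to 0.31) was negative without CD90pos IFNg A in the blocked fit. Psmd10 in CD90neg IFNg (range -0.44 to 0.018) was positive without CD90neg control B. Where an arm kept 1 library, it was assumed to vary like the other groups. What depth limits was not tested; the members had at least 230 reads in every library.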
